A study of Homo sapiens with 3 samples.

Results

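Interferon-stimulated and antigen presentation genes were compared between MCF10A cells that carried an shRNA against obscurin and MCF10A cells that carried a scrambled control shRNA. The set was a list of 38 genes, chosen by name. A member counted as measured when at least 1 array feature was annotated to that symbol alone, its features were averaged on each array, and the average existed on all 3 arrays. This left 25 of the 38 listed genes, out of 12550 genes measured in the same way. They fell into 17 of 26 antiviral effectors and other induced products, 2 of 6 signalling factors and all 6 antigen presentation genes.

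MCF10A is an immortalised, non-tumorigenic human breast epithelial line. On each of 3 two-colour arrays, which the labels call independent replicates, RNA of cells with obscurin shRNA-2 was coupled to Cy5 and RNA of cells with control shRNA-1 to Cy3. Both were stable transfectants kept in 1.5 ug/mL puromycin, and both had received 150 uM etoposide, a drug that traps topoisomerase II on cut DNA, for 48 hours. Obscurin is a giant cytoskeletal signalling protein, and the study asked how its loss alters expression under this drug. The labels do not say whether a transfectant was 1 clone or a pool, no array held cells without etoposide, and the dyes were never swapped, so a dye effect and the shRNA cannot be told apart. Obscurin itself was not analysed here.

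Type I and type III interferons bind cell surface receptors, activate the kinases JAK1 and TYK2 and assemble a complex that contains STAT2 and IRF9. That complex binds the interferon-stimulated response element, a DNA motif built of repeated GAAA letters, and switches on genes whose products block viral entry, translation and replication. IRF7 is itself induced and amplifies the response. Interferon also raises the machinery that cuts proteins into peptides and shows them to T cells: immunoproteasome subunits, the peptide transporter TAP and class I molecules bound to beta-2-microglobulin. Broken or misplaced DNA can start the same response through cytosolic DNA sensors.

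The shared motif is visible in the promoters of the listed genes. RefSeq promoters on GRCh38.p14, from 250 bases before to 50 after the gene start, were found for 31 of the 38. The letters GAAA, any 2 bases and GAAA again, searched on both strands, occurred in 19 of these 31 promoters (61.3%), against 996 of 27305 promoters of all genes (3.65%). By role, the motif stood in 16 of 21 promoters of antiviral effectors, 1 of 4 of signalling factors and 2 of 6 of antigen presentation genes. The letters TTC, any 3 bases and GAA, the core of the gamma-activated site, a second interferon-responsive motif, occurred in 8 of the 31 (25.8%) and in 7.88% of all promoters. It reads the same on both strands, and its matches were counted separately and may overlap the first motif. Stretches of 50 bases around the motif are shown for 6 members with low, middling or high measured ratios, each on the strand of its gene with the motif in capitals. B2M lay in the middle, with 42.5% of tested genes lower, and IRF9 and PSMB8, among the lowest members, had no match to show. TAP1 comes from chr6:32853803-32853852 (minus strand), B2M from chr15:44711359-44711408 (plus), OAS3 from chr12:112938442-112938491 (plus), IFI27 from chr14:94110621-94110670 (plus), IFIT1 from chr10:89392500-89392549 (plus) and IFI44 from chr1:78649751-78649800 (plus).
TAP1: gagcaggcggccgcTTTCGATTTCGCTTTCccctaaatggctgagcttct
B2M: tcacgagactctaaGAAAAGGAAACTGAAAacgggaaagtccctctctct
OAS3: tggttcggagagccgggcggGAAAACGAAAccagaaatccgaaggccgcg
IFI27: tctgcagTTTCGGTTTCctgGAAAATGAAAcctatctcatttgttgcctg
IFIT1: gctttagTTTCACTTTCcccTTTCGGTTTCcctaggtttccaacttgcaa
IFI44: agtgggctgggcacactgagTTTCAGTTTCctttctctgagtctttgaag
TAP1, B2M, IFI27 and IFIT1 carry 2 matches within the stretch, on one strand or both, and the matches of TAP1 and B2M overlap. A match is a description of letters and not evidence of binding in these cells.

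The deposited values are log2 ratios of the channels, read here as Cy5 (obscurin shRNA) over Cy3 (control shRNA), a likely but unstated direction with an unstated zero point. If the ratio was formed the other way, every sign, rank and share below or above turns round. Each array gave a value for 35502 to 36065 of its 45220 features, and 23308 features had a value on all arrays. Values formed a narrow peak around the most repeated value and a broad one well below it, so each array was set to 0 at its median over all features, and all ratios below are on that scale unless stated otherwise. The most repeated value then lay at 0.58, 0.69 and 0.61. The median over all tested genes, each the average of its features, was -0.47, -0.48 and -0.48. The arrays ranked genes alike only in part, with a Spearman correlation across genes, which are not independent, of 0.33, 0.27 and 0.49 for arrays 1 and 2, 1 and 3, and 2 and 3. Over the 25 members it was 0.54, 0.35 and 0.30. A further limit concerns the gene names. For 232 repeated transcripts outside the listed genes, features of one transcript agreed better when values were read 170 features, or 1 feature row, earlier in the table than at their own place, with an intraclass correlation of ranks of 0.162 against 0.080 on array 1, 0.146 against 0.104 on array 2 and 0.123 against 0.105 on array 3. Of 600 displacements tried, 170 gave the highest value on each array. The better place changed along the table. With each array cut into 5 stretches, 1 row earlier agreed better in 10 of the 15 and the own place in 5. In stretch 1 the own place was better on arrays 2 and 3, at 0.51 against -0.14 and 0.45 against -0.05. On array 1 that stretch agreed better 1 row earlier, at 0.35 against -0.13. Every gene name below is the annotation's name at the own place. Values 1 row earlier are given for many members but not for all, and some of those not given also changed there.

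No member passed the threshold, an adjusted p of 0.05 by limma with Benjamini-Hochberg adjustment over all tested genes, and neither did any of the 12550 genes (0.0% of genes called higher and 0.0% called lower). At an unadjusted p under 0.05, 0 members lay above the feature median and 8 below, against 0.829% of all genes above and 22.8% below. These 8 of 25 lay on the side where most genes with a small p lay. Counted by sign, 9 of 25 members (36.0%) were below the feature median on every array, close to the background of 33.8% of all genes, and 1 of 25 was above it on every array, against 15.7% of genes. The remaining 15 had mixed signs.

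The roles differed more than the set as a whole. The per-array median of the signalling factors was -2.26, -3.35 and -2.57 on arrays 1, 2 and 3, that of the antigen presentation genes -1.21, -1.08 and -1.03, and that of the antiviral effectors -0.82, 0.11 and -0.15. Signalling factors were below antiviral effectors on each array, by a mean difference of -2.44 ± 1.01 (SD, n = 3 arrays), but rested on only 2 genes. Antigen presentation genes were below antiviral effectors on each array too, by -0.82 ± 0.41, and signalling factors lay -1.62 ± 0.61 from antigen presentation genes. The difference between antigen presentation genes and effectors was -0.40 ± 1.00 with values read 1 row earlier, an SD larger than the mean, and -1.65 ± 0.18 over single features. These differences are descriptions with no test. They do not depend on the zero point, while the medians do: as deposited, the mean over arrays of the class median was -1.34 for signalling factors, 0.28 for antigen presentation genes and 1.10 for antiviral effectors, and with the median of tested genes at 0 the effectors had 0.19.

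**Figure D1:**
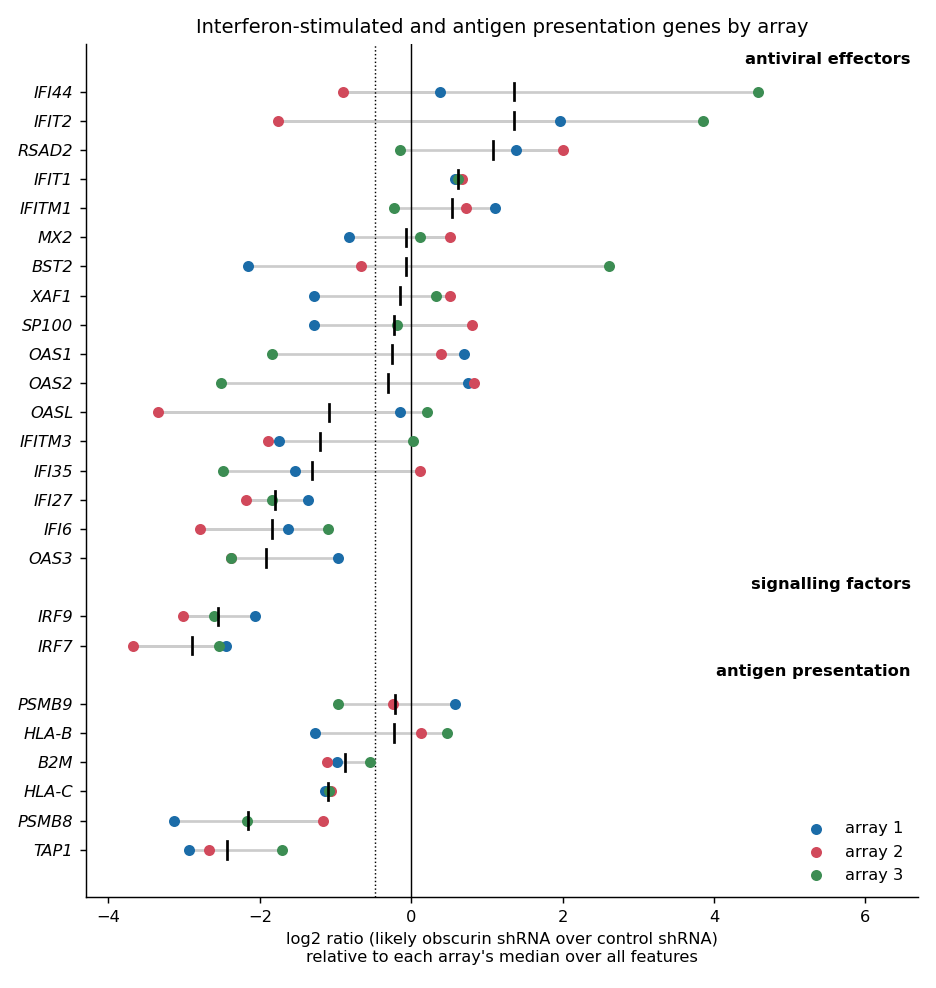
Log2 ratio of each of the 25 measured members on arrays 1, 2 and 3 (coloured points) and their mean (black tick), relative to each array's median over all features; the dotted line is the mean over arrays of the median of all tested genes, -0.48. IRF7, IRF9 and TAP1 lie below -1.5 on every array and PSMB8 on arrays 1 and 3. IFIT1 and HLA-C have nearly identical values on all arrays, and IFI44, IFIT2 and BST2 spread over more than 4 log2 units.

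Among the signalling factors, the 2 measured genes had the lowest means of all members. IRF7, the transcription factor that amplifies interferon production, had log2 ratios of -2.45, -3.68 and -2.54 on arrays 1, 2 and 3, a mean of -2.89 ± 0.43 (SE), and 4.55% of tested genes had a lower mean. IRF9, the DNA-binding subunit of the interferon-activated transcription complex, had -2.06, -3.01 and -2.61, a mean of -2.56 ± 0.38, and 8.36% of genes had a lower mean. Both were below the feature median on every array, and both missed the threshold narrowly, at a limma adjusted p of 0.0541 each (unadjusted 0.00247 and 0.00248). Many genes shared adjusted p-values of this size, and the smallest of any gene was 0.0524. For IRF9 the value 1 row earlier was as low, at -2.38, -3.54 and -2.93. IRF7 had 0.44 on array 1 and -3.18 on array 3 there, with no value on array 2. The IRF7 feature measured on every array and the IRF9 feature lie in the same stretch. In that stretch repeated features agreed better 1 row earlier on every array. With the better place per stretch, IRF7 had -0.90 on array 1 and -3.18 on array 3, so its low value on array 1 rests on the annotated place. Leaving out array 2 gave -2.49 for IRF7 and -2.33 for IRF9, and the adjusted p was then 0.261 for each.

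The other signalling factors had values on fewer arrays and were not tested. IRF1, which drives antigen presentation genes after interferon gamma, had -2.01 on array 1 and 0.40 on array 3. IFIH1, the cytosolic RNA sensor MDA5, had -0.09 on array 1 and -0.31 on array 2. USP18, which removes ISG15 from proteins and restrains the receptor, had 0.14 on array 1 and 0.52 on array 3. STAT2 was not analysed here. The signalling class as measured is therefore IRF7 and IRF9 alone, and a pair of genes cannot stand for the pathway.

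All 6 antigen presentation genes had a mean below the feature median, as did 68.4% of all genes. Below it on every array were 4 of the 6 (66.7%), against 33.8% of all genes. The lowest were TAP1 and PSMB8, neighbours in the RefSeq gene table. TAP1, a subunit of the transporter that carries peptides into the endoplasmic reticulum, had -2.94, -2.68 and -1.71 on arrays 1, 2 and 3, a mean of -2.44 ± 0.42 (SE, limma adjusted p = 0.0616). PSMB8, an immunoproteasome subunit, had -3.13, -1.17 and -2.17, a mean of -2.16 ± 0.52 (adjusted p = 0.104). Their other neighbour did not share these values at its own place. PSMB9, a second immunoproteasome subunit on the far side of TAP1, had 0.58, -0.25 and -0.97. Its mean was -0.21 ± 0.46, which turns to 0.16 without array 3. Each of the 3 genes was measured by 1 feature. Read 1 row earlier, TAP1 had -1.75, -0.47 and 0.33 and PSMB8 -2.58, 0.33 and -0.03. Their low values on arrays 2 and 3 thus rest on the annotated place. PSMB9 had -3.61, 0.69 and -0.62 there, and its mean of -1.18 lay below the -0.63 of TAP1. In the stretch that holds PSMB8, repeated features agreed better at the own place on arrays 2 and 3. With the better place on each array, PSMB8 had a mean of -1.97. In the stretches that hold TAP1 and PSMB9, they agreed better 1 row earlier on every array.

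The class I heavy chains and their partner lay nearer the bulk of genes at their own place, but not 1 row earlier. HLA-C had -1.14, -1.05 and -1.09, a mean of -1.10 ± 0.33 (SE, limma adjusted p = 0.156). B2M, beta-2-microglobulin, the invariant chain of class I molecules, had -0.98, -1.11 and -0.54, a mean of -0.88 ± 0.35 (adjusted p = 0.245). These even averages come from 8 to 10 B2M features and 9 to 11 HLA-C features with a value on an array, and hide a wide spread between features. HLA-B had -1.27, 0.13 and 0.47, a mean of -0.22 ± 0.50, which turns to 0.30 without array 1. Read 1 row earlier, HLA-B had -1.56, -2.93 and -2.07, a mean of -2.19 ± 0.43 (limma adjusted p = 0.0759), B2M a mean of -1.91 ± 0.36 (adjusted p = 0.070) and HLA-C a mean of -1.34 ± 0.33. There HLA-B and B2M lay below TAP1, whose mean was -0.63, so the order within the class turned with the place. On the deposited scale, whose zero point is unknown, HLA-C (0.29), B2M (0.51), HLA-B (1.16) and PSMB9 (1.17) had means above 0. HLA-B and HLA-C are near-identical in sequence over long stretches, so a feature named for one can also bind transcripts of the other or of further class I genes.

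Antiviral effectors held both the highest members and several low ones. Of the 17 measured, 3 (17.6%) were below the feature median on every array, against 33.8% of all genes. Above it on every array was 1 (5.88%), against 15.7%, and 13 had mixed signs. A mean below it was found for 12 (70.6%), close to the 68.4% of all genes, and 5 had a mean above. The median over effectors of the gene means was -0.22, against -0.61 over all tested genes.

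The 3 effectors below on every array were OAS3, IFI6 and IFI27. OAS3, which makes the 2'-5' oligoadenylates that activate RNase L, had -0.97, -2.39 and -2.38 on arrays 1, 2 and 3, a mean of -1.91 ± 0.47 (SE, limma adjusted p = 0.108). Its neighbours did not follow at their own place: OAS1 had 0.70, 0.39 and -1.84, and OAS2 had 0.76, 0.83 and -2.52. On arrays 1 and 2 OAS3 thus lay apart from both, and on array 3 all 3 were low. Read 1 row earlier, OAS1 had 1.08, 0.66 and 0.38 and OAS3 -0.34, -3.09 and -1.83. OAS2 had 0.85 on array 2 and -2.40 on array 3 there. In the stretch that holds OAS1, repeated features agreed better 1 row earlier on every array. IFI6, a mitochondrial protein that opposes apoptosis, had -1.63, -2.80 and -1.10, a mean of -1.84 ± 0.48 (limma adjusted p = 0.122). Its values on arrays 1 and 2 come from a single feature. On array 3 that feature had -3.07 and was averaged with 0.86 from another that had a value there only. The feature measured on every array had a mean of -2.50. IFI27, a small hydrophobic protein strongly induced by type I interferon, had -1.36, -2.19 and -1.85, a mean of -1.80 ± 0.37 (adjusted p = 0.080). IFI35, an interferon-induced protein without a DNA-binding domain, followed by mean, but with array 2 on the other side: -1.54, 0.11 and -2.49, a mean of -1.31 ± 0.63, which was 0.0793 as deposited.

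At the upper end, IFIT1 was the only member above the feature median on all arrays. IFIT1, which binds viral RNA that lacks the host's cap methylation, had 0.58, 0.67 and 0.62, a mean of 0.62 ± 0.33 (SE, adjusted p = 0.325). On every array this was within 0.5 of the most repeated value, which 8.02% of tested genes also were, and its mean differed from that value by -0.001. IFIT1 therefore sat where the largest number of features sat. Read 1 row earlier it was on the other side, at -2.94 on array 1 and -0.13 on array 2, with no value on array 3. RSAD2, or viperin, had 1.39, 2.01 and -0.15, a mean of 1.08 ± 0.56 (adjusted p = 0.319). IFI44 and IFIT2 had the highest means, 1.36 ± 1.21 and 1.35 ± 1.20 (adjusted p of 0.510 and 0.509), and neither was steady. IFI44 had 0.39, -0.90 and 4.59 on arrays 1, 2 and 3, and its mean without array 3 was -0.26. IFIT2, an RNA-binding relative of IFIT1, had 1.96, -1.76 and 3.86, and read 1 row earlier its mean was -0.35.

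The other measured effectors had means between -1.21 and 0.53 and mixed signs. These were IFITM3, OASL, OAS2, OAS1, SP100, XAF1, BST2, MX2 and IFITM1. BST2, or tetherin, which holds budding virus at the cell surface, spread most among them, at -2.16, -0.67 and 2.61; 1 row earlier it had -2.91, -2.71 and -3.25, low on every array. IFITM1 had 1.11, 0.72 and -0.23 and its neighbour IFITM3 -1.74, -1.89 and 0.02. Both are membrane proteins that block viral fusion and are close in sequence, so their features may share targets. OASL, a relative of OAS1 that makes no oligoadenylate, had -0.14, -3.34 and 0.21, so its mean of -1.09 rests on array 2. MX2, a dynamin-like restriction factor, had -0.82, 0.51 and 0.11, and XAF1, which opposes the apoptosis inhibitor XIAP, -1.29, 0.51 and 0.33. SP100, a component of nuclear bodies, had -1.28, 0.80 and -0.19. Read 1 row earlier, SP100 had -1.97, -1.55 and -1.06 and XAF1 -0.64, -2.41 and -1.26, both low on every array.

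Another 9 listed effectors had no value on at least 1 array. ISG15, the ubiquitin-like protein that interferon induces most strongly in many cells, had no value on any array at its own place, and -2.88, -2.87 and -3.64 at the place 1 row earlier. MX1 had a value on array 2 alone, 0.51, and CXCL10, a chemokine that attracts T cells, on array 3 alone, 0.58. PLSCR1, a phospholipid scramblase, had 8.24 on array 2 and no other value. Read 1 row earlier, PLSCR1 had 0.53, -1.05 and 0.26, and in its stretch repeated features agreed better there on every array. IFIT3 had 0.53 on array 1 and -3.76 on array 2, HERC5, the ligase that attaches ISG15, 0.40 on array 2 and 2.72 on array 3, and IFITM2 0.24 on array 2 and -3.29 on array 3. At their own place these 3 genes were thus on opposite sides or far apart on the arrays that measured them. Read 1 row earlier, HERC5 had -3.26 on array 2 and -1.31 on array 3, and IFIT3 had 0.27, 5.90 and -0.16. IFITM2 had 2.69 on array 1 and 0.33 on array 2 there. In the stretch that holds HERC5, repeated features agreed better 1 row earlier on every array. IFI44L had -0.74 and -0.58, and ISG20, an RNA exonuclease, 0.73 and 0.48, on arrays 1 and 3.

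At the level of features, the listed genes lay more often in the lower peak. A deposited log2 ratio of 0 falls between both peaks. Of the features of listed genes with a value, 42.0%, 46.0% and 40.6% were below it on arrays 1, 2 and 3, against 33.4%, 35.8% and 33.9% of all features with 1 symbol. By role the shares were 45.8%, 56.5% and 45.8% for antigen presentation genes and 36.8%, 36.1% and 37.5% for antiviral effectors, whose shares were close to those of all features. Of the 84 features of listed genes, B2M and HLA-C have 12 each and IFI27 has 11, so these shares are not a count over independent genes.

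**Figure D2:**
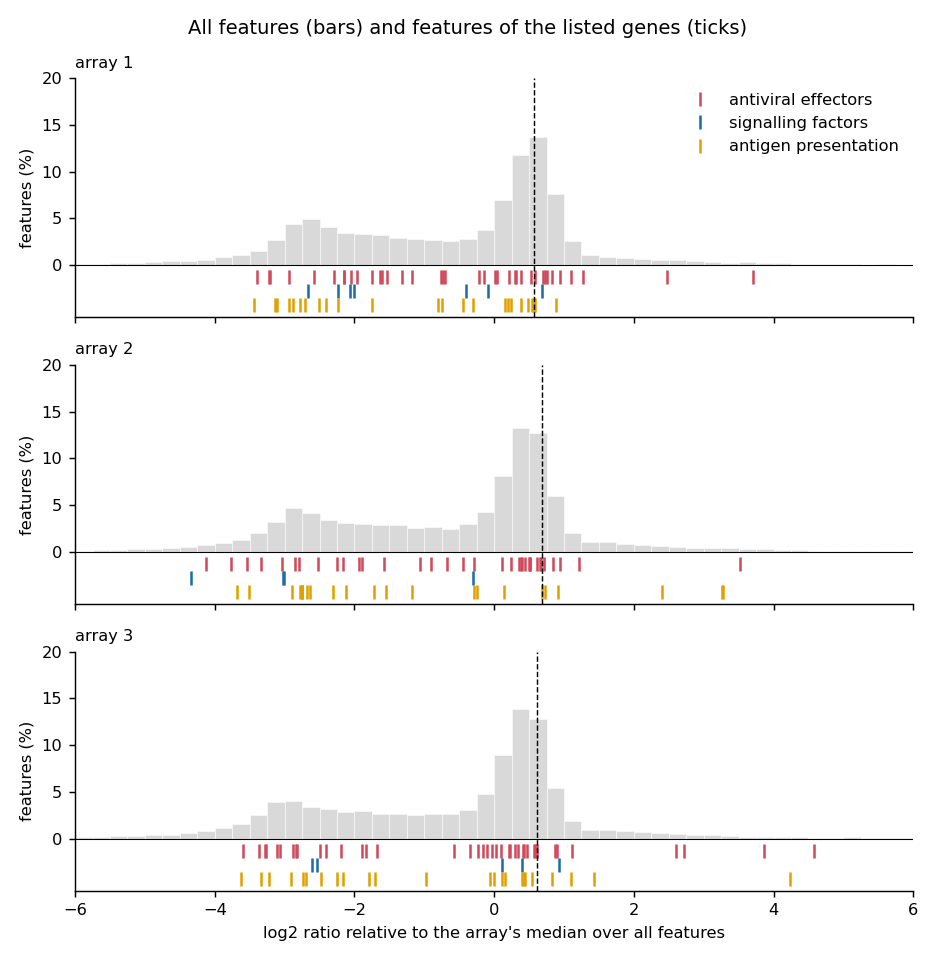
Share of all features (grey bars, bins of 0.25) by log2 ratio relative to the array's feature median, for each array, with the features of listed genes as ticks below, coloured by role. The dashed line is the most repeated value, at 0.58, 0.69 and 0.61 on arrays 1, 2 and 3; features of listed genes occupy both peaks, and values beyond 6 in either direction, 1 of them a listed gene's on array 2, are not drawn.

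B2M, HLA-C and IFI27 were printed many times on the array, which shows how far one transcript's features agreed. B2M had 10 features annotated to one transcript, HLA-C 10 and IFI27 11. On array 2 the B2M features ranged from -3.68 to 3.26 and those of HLA-C from -3.51 to 3.28, counting all 12 features annotated to each gene. The SD between features on arrays 1, 2 and 3 was 1.78, 2.45 and 2.41 for B2M, 1.36, 2.27 and 1.96 for HLA-C and 1.78, 1.45 and 1.69 for IFI27, against a median SD of 1.38, 1.35 and 1.37 among all genes with several values, while the SD over gene means of all genes was 1.67, 1.76 and 1.73. On arrays 2 and 3, features annotated to B2M and to HLA-C, all counted, thus varied more than genes did. For B2M they include a feature outside the repeated transcript, at 3.26 and 4.24 on those arrays. The repeats of the B2M transcript ran from -3.68 to 0.73 on array 2 and from -2.90 to 1.10 on array 3. Their SD on its own was not computed.

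The repeats fell into an order along the table. Among the first 22610 features, 11 of 12 repeats with a value on array 2 and 10 of 14 on array 3 lay below -1.5 at their own place, but 5 of 11 did on either array among the remaining features. Read 1 row earlier, the pattern turned: 6 of 13 and 6 of 14 among the first 22610 features, and 10 of 12 and 11 of 14 among the rest. Array 1 ran the other way at the beginning, with 5 of 12 at the own place and 10 of 14 read 1 row earlier, and 9 of 13 against 6 of 10 among the rest. Of all features, 32.5%, 32.2% and 31.7% lay below -1.5 on arrays 1, 2 and 3. On array 3, the last pair of HLA-C repeats read -2.56 and -2.45 at the place 1 row earlier, and the same features 0.11 and 1.43 at the own place.

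**Figure D3:**
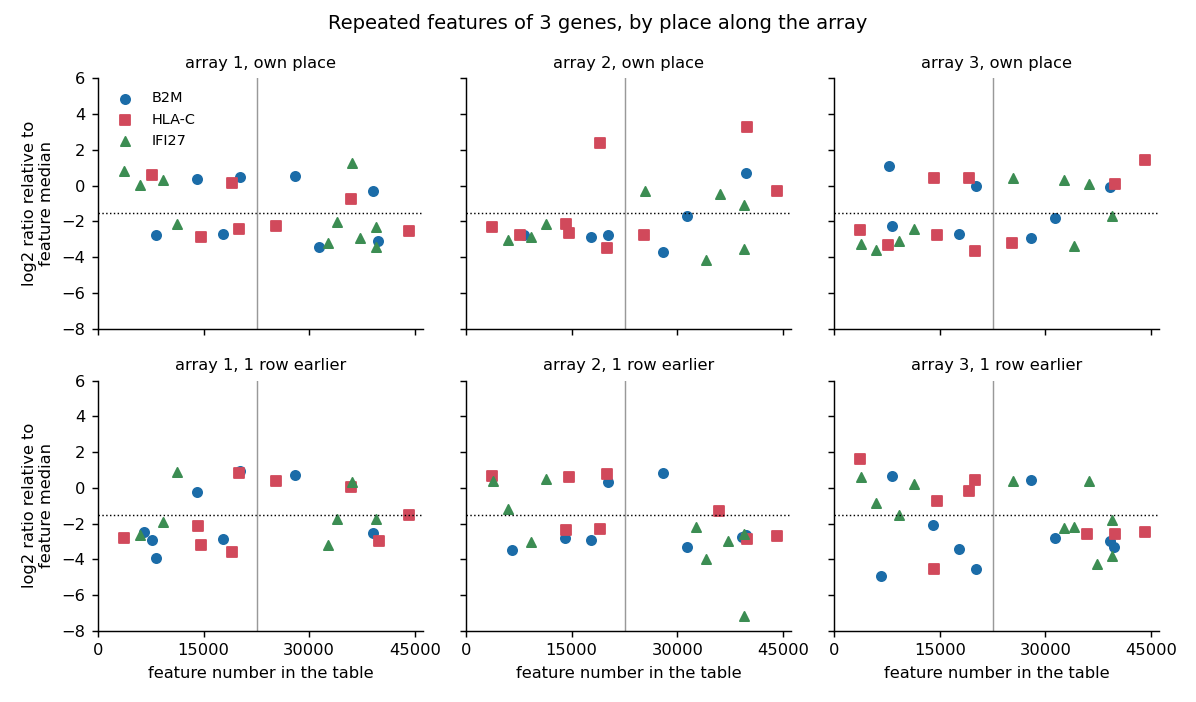
Log2 ratio relative to the feature median of the repeated features of B2M, HLA-C and IFI27, by feature number, at their own place (top) and at the place 170 features earlier (bottom), for arrays 1, 2 and 3. The vertical line marks feature 22610 and the dotted line -1.5; on arrays 2 and 3 the points below the dotted line gather left of the vertical line at the own place and right of it 1 row earlier.

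Tested feature by feature, with no average per gene, 9 of 45 features of listed genes passed the threshold on the lower side against 11.2% of 23308 features, and 0 passed on the higher side (0.0472% of features). By role, 6 of 18 antigen presentation features, 2 of 2 signalling features and 1 of 25 effector features passed. Those were 3 of 8 HLA-C, 2 of 6 B2M and 1 of 6 IFI27 features and the single tested features of IRF7, IRF9 and TAP1. The called B2M features had means of -2.77 and -2.59, and the called HLA-C features -2.75, -2.74 and -3.18, far below the gene averages of -0.88 and -1.10. When the most repeated value served as the zero point, 8 of 25 members passed on the lower side, against 17.2% of genes, and 0 on the higher side (0.0159% of genes). They were IRF7, IRF9, TAP1, PSMB8, HLA-C, OAS3, IFI6 and IFI27. Array weights called IRF7, IRF9 and TAP1 lower, against 7.45% of genes, and 0 members higher (0.0478% of genes). The same 3 members were called lower where only features with values on all arrays were used, against 10.0% of genes, with 0 higher (0.0339% of genes). Taking each of 5 stretches of the table at the place where repeated features agreed better, a setting chosen after seeing the data, called IRF9 and BST2 lower, against 5.99% of genes, and 0 members higher (0.0161% of genes). IRF9 is the 1 member called under all of these settings. IRF7 had no value on array 2 in the setting by stretches and was not tested there. The calls depend on where 0 is placed and which features and places are used.

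The wider pathway gave no call either. Of 81 further genes of interferon signalling and antigen presentation, 52 were measured on all arrays and 0 passed the threshold in either direction by limma; 17 had an unadjusted p under 0.05 on the lower side, against 22.8% of all genes, and 0 on the higher, against 0.829%. Below the feature median on every array were 22 of 52 (42.3%), against 33.8% of all genes, and above it 7 (13.5%), against 15.7%. Their gene means had a median of -0.88.

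Ligands and receptors were on both sides. IFNG, interferon gamma, had 0.67, 0.45 and 0.27 on arrays 1, 2 and 3, and 2 of 9 listed interferons were measured. IFNGR2 had -2.77, -2.69 and -2.12, a mean of -2.53 ± 0.36 (limma adjusted p = 0.0524), and the kinase TYK2 had -2.55, -1.02 and -1.01. Of 6 measured receptors and kinases, 2 were below on every array, a share close to the 33.8% of all genes, and 0 above, against 15.7%.

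Sensing genes held the lowest mean of the wider lists. IFI16, a nuclear and cytosolic DNA sensor, had -2.58, -3.29 and -4.16, a mean of -3.34 ± 0.46, and IRF3, the factor that sensors activate, -2.45, -2.75 and -3.13, a mean of -2.78 ± 0.36; each had a limma adjusted p of 0.0524. Of 9 measured sensing genes, 3 were below on every array, again close to the share of all genes. Of 7 further signalling factors and inhibitors, 5 were, against 33.8% of all genes. Among them were PIAS1, a SUMO ligase that restrains interferon signalling, at a mean of -2.16 ± 0.34, and SOCS1, which blocks JAK kinases, at -2.04 ± 0.36. The median of the gene means of those 7 was -1.81.

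Further antiviral and antigen presentation genes lay in the order of the member roles. The 15 further antiviral genes had a median mean of -0.19. On every array 5 of the 15 were below and 4 above, against 33.8% and 15.7% of all genes. GBP2, an interferon-induced GTPase, had a mean of -3.14 ± 0.42 and PARP9 -2.29 ± 0.34, while DTX3L, the ligase that partners PARP9, had 1.11 ± 0.70 and the chemokine CXCL9 0.95 ± 0.59. The 13 further antigen presentation genes had a median mean of -1.48. On every array 7 of the 13 were below and 2 above, against the same 33.8% and 15.7%. PSME2, a proteasome activator subunit, had -0.93, -2.87 and -2.97, and PDIA3, a chaperone of the peptide-loading complex, -1.46, -2.12 and -2.37. CIITA, the master regulator of class II genes, lay at the other end with 0.66, 2.66 and 1.09, and the peptidase ERAP2 had 0.16, 0.47 and 0.37.

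**Figure D4:**
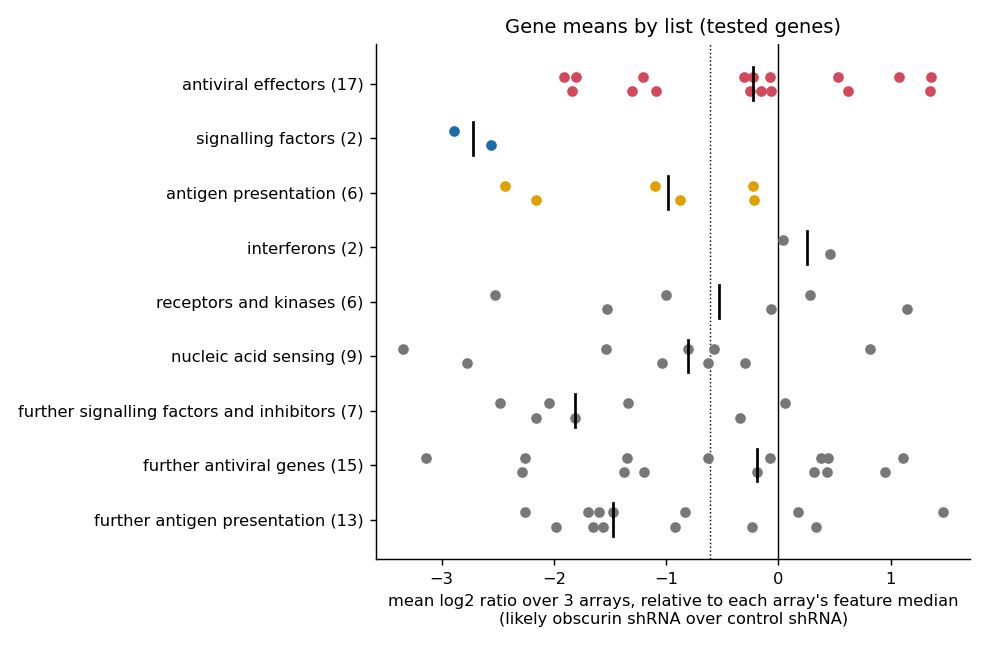
Mean log2 ratio over 3 arrays of each tested gene, by list, relative to each array's feature median; black ticks are list medians, the dotted line is the median over all tested genes, -0.61, and the number of genes stands in parentheses. Both antiviral lists have medians right of the dotted line, at -0.22 and -0.19, and both antigen presentation lists and the signalling lists have medians left of it.

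A ratio holds no level, so the cell type on the label cannot be checked from these values. Of 4 measured breast epithelial markers, KRT18 had a mean of -3.54, KRT14 -2.07, CDH1 0.71 and EPCAM 1.80. Leukocytes express many of the listed genes. Of 8 leukocyte markers 6 were measured, and their means had a median of -0.25. CD4 at -2.95 and CD68 at -2.49 were below the feature median on every array, 2 of 6 against 33.8% of all genes. CD8A at 0.54 and CD3E at 0.64 were above it on every array, 2 of 6 against 15.7%. PTPRC and ITGAM had mixed signs, at means of -0.42 and -0.09. Of 4 fibroblast markers, 3 were measured, all with mixed signs. CD4 and CD68 thus had ratios as low as IRF7 and IRF9, as the other leukocyte markers did not, and the epithelial KRT18 was lower still. By the labels both channels held MCF10A cells, and whether other cells were present was not tested.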

How the data were processed

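Per the labels' protocols, 10 ug of total RNA was reverse transcribed with random hexamers and aminoallyl-dUTP and coupled to Cy5 (obscurin shRNA) or Cy3 (control shRNA). The authors deposited 1 log2 ratio per feature and array; no source used here gives the scanner, image analysis, normalization or direction, and the log2 base was read from the values. Features were named by the platform annotation, updated by Entrez identifier to RefSeq: 31332 had 1 symbol, 31291 matched and 0 changed, 93 had several symbols and 13795 none. Each array was centred on its feature median, features were averaged per gene, and limma 3.58.1 (R 4.3.3, lmFit, eBayes, Benjamini-Hochberg) gave a two-sided test of each mean against 0. The fit was also run on simulated normal values centred on 0 with known shifts. The deposited values form a narrow and a broad peak, so that run does not show how the test behaves on them. Precision is limited by the number of arrays, and p-values measure the spread between these 3. Members and lists were chosen with earlier results of these data known. Full values were given for up to 4 members with the highest and the lowest mean per role, and up to 2 genes per wider list and direction with the smallest p and 1 sign on all arrays. Other members named with values were chosen after their values were seen. The zero point, scaling, filters, summaries, table place, moderation and left-out arrays were varied.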

Additional observations from a re-analysis of the deposited data

How the results depend on the processing

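No paired analysis was possible because each array already holds both cell populations and there is 1 group of arrays. The class medians moved mainly with the zero point. As deposited they were 0.52 over members, 1.10 for antiviral effectors, -1.34 for signalling factors and 0.28 for antigen presentation. With the most repeated value at 0 they were -1.49, -0.91, -3.35 and -1.73 in that order, and with the median of tested genes at 0, -0.39 over members, -0.63 for antigen presentation and 0.19 for the effectors, on the other side of 0. Tested feature by feature, the medians were -1.34 over members and -1.97 for antigen presentation, which then lay -1.65 from the effectors. Using only features with values on all arrays, antigen presentation had -1.27, the effectors -0.0025, and antigen presentation lay -1.27 from the effectors. The median of features gave antigen presentation -1.20, and genes with values on at least 2 arrays gave signalling factors -2.03. One row earlier, the members had -1.35, the effectors -0.78, and antigen presentation lay -0.40 ± 1.00 from the effectors. Without array 1 the effectors had -0.02. The better place per stretch, a setting chosen after seeing the data, gave antigen presentation -1.36. The difference between signalling factors and effectors kept its sign under each of the settings run and moved by less than its SD. The signalling genes measured changed between settings, so this does not describe the pair of IRF7 and IRF9 alone. One row earlier they were IRF9 and IRF1, at means of -2.95 and -1.98, and at the better place IRF9 alone. With values on at least 2 arrays, IRF1, IFIH1 and USP18 joined the pair.

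Calls appeared under 5 settings, higher and lower in that order. Array weights gave 6 and 935 genes, with 3 members lower (IRF7, IRF9 and TAP1). Features with all values gave 4 and 1182, with the same 3 members. The most repeated value gave 2 and 2161, with 8 members. Single features gave 11 and 2602, with 9 member features. The better place per stretch gave 2 and 746, with 2 members, IRF9 and BST2. The other 11 settings gave 0 genes by limma. Over the settings that tested it, the limma adjusted p of IRF7 ranged from 0.0243 to 0.261. That of IRF9 ranged from 0.0242 to 0.261 and that of TAP1 from 0.0263 to 0.481.

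Of 236 values of named members under other settings, 15 changed sign. As deposited, IFI35 had 0.0793, HLA-C 0.29, B2M 0.51, HLA-B 1.16 and PSMB9 1.17. With tested genes at 0, HLA-B had 0.25 and PSMB9 0.26, and with the most repeated value at 0, IFIT1 had -0.001. One row earlier, IFI35 had 0.0085, IFIT2 -0.35 and IFI44 -1.43, and the better place gave IFIT2 -0.22. Leaving out 1 array in turn, IFI44 ranged from -0.26 to 2.49, HLA-B from -0.57 to 0.30 and PSMB9 from -0.61 to 0.16. IRF7 and IFIT1 had values on only 2 arrays 1 row earlier. Signal over background was not analysed here, so dim features could not be set aside, and the arrays' number limits all p-values.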
